A study of Mus musculus with 6 samples.

Results

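The 10 circadian clock genes described here are Clock and Npas2, Per1, Per2 and Per3, Cry1 and Cry2, Nr1d1 and Nr1d2, and Dbp. They are 10 of the 21738 protein-coding genes of the GENCODE M39 annotation of the mouse genome GRCm39. They are described by their open chromatin, as the distinct accessible intervals that overlapped a gene from 3 kb upstream of its start to its end, read along the strand of the gene. These were 105 of the 279569 intervals in the deposited peak list of mouse kidney cortex made by ATAC-seq, a method in which the Tn5 transposase cuts and tags DNA where chromatin is open. All 10 genes had at least 1 interval.

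The study compared kidneys of WT mice with kidneys of Acly cKO mice, which lack ATP citrate lyase in tubule cells. The samples used here are 3 WT and 3 Acly cKO kidneys, all with the treatment label Control. By the study's methods the cKO mice carry Acly fl/fl and Ksp-Cre (Cdh16-Cre), which recombines in proximal tubules, distal tubules and collecting ducts, and the controls are littermates with Acly fl/fl and no Cre, which the labels call WT. Glomerular, vascular and immune cells are not targets of this Cre. The labels put the WT libraries in batches 1 and 2 and the cKO libraries in batches 4 and 5, so that an effect of batch cannot be told apart from one of genotype. The sources used here tie no age to these kidneys and do not give the time of day at which they were collected.

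Time of day matters as background, because the clock genes form a loop that turns once a day. CLOCK and its relative NPAS2 pair with a bHLH-PAS partner and bind the E-box, CACGTG, at the genes of their own repressors, the Per and Cry genes. The nuclear receptors REV-ERBα and REV-ERBβ, encoded by Nr1d1 and Nr1d2, close a further arm by repressing through ROR elements, and DBP activates through D-boxes. In the kidney the loop is known for daily rhythms in the handling of salt and water.

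The deposited peak list is 1 call over pooled libraries, with no column for a single library. Each value below is therefore 1 number for the pool, with no replicate error, and no test between genotypes or between genes was possible. Each interval is given by its highest summit by q, with the fold enrichment of reads there over background and the -log10 q, both as the authors' peak caller wrote them. Clock gene summits of equal fold enrichment had equal -log10 q at different genes. No background local to each gene therefore shows in these values. The same measure over all protein-coding genes, all intervals or all summits is given for the main counts. A pool of kidney cortex cells mixes many cell types, and the share of each cell type that is open at a locus cannot be told apart from how open it is.

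The sequences below show where clock motifs lay at strong summits. They are the E-boxes, in capitals, within 100 bp of a summit of at least 10-fold, read 5′ to 3′ on the strand of the gene from GRCm39. Per1 (plus strand) gave chr11:68985881-68985910 upstream of the gene, chr11:68988488-68988517 in the intron of a non-canonical transcript and chr11:68989597-68989626 in the 5′ UTR of exon 1. Cry1 (minus strand) gave chr10:85020962-85020989, in an exon of a non-canonical transcript. Cry2 (minus strand) gave chr2:92254200-92254299 in intron 3, where the first capitals mark a ROR core instead. Nr1d1 (minus strand) gave chr11:98663852-98663881 in intron 1, and Nr1d2 (plus strand) chr14:4231006-4231183 in intron 1, where the second run of capitals is a D-box. Dbp (plus strand) gave chr7:45357124-45357266 in intron 2, where the second run of capitals is the variant E-box CACGTT read on the opposite strand.
Per1 upstream: cgcccccgccctCACGTGgctctatcacta
Per1 intron of the long transcript: gaaagctttagcCACGTGacagtgaggggc
Per1 exon 1: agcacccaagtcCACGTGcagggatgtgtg
Cry1 exon: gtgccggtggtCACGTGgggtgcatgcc
Cry2 intron 3: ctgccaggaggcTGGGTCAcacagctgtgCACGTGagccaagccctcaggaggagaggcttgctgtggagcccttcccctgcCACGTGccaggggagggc
Nr1d1 intron 1: tgtcacctcacaCACGTGtctgaggatcct
Nr1d2 intron 1: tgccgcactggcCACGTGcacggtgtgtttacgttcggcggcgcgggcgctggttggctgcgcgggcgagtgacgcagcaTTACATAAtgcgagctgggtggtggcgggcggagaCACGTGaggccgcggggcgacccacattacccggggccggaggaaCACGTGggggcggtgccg
Dbp intron 2: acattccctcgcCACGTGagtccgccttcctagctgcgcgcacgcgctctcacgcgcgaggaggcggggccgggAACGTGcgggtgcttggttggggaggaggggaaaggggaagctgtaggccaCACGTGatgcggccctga

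These 8 windows hold 12 E-boxes from 6 genes. Of the 12, 11 lay downstream of the gene start, and 8 of these in an intron of the canonical transcript. Per1 alone had a match upstream of its start that met both limits. The gene start here is the outermost annotated start. Measured from the canonical starts, at +3233 in Per1 and +303 in Cry1, the Per1 match at +2468 and the Cry1 match at +276 also lay upstream.

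The second set shows the D-box, TTATGTAA or TTACGTAA on either strand, in capitals. Per2 (minus strand, chr1:91387152-91387183) and Per3 (minus strand, chr4:151129261-151129339) carried theirs upstream of the gene start, and Nr1d1 (minus strand, chr11:98664894-98664925) in intron 1.
Per2 upstream: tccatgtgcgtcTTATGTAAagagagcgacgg
Per3 upstream: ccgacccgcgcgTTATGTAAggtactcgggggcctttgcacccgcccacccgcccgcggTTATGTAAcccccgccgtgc
Nr1d1 intron 1: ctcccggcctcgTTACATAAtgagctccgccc

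All 10 clock genes had a promoter interval, meaning an interval within 1 kb of the gene start, against 74.3% of all protein-coding genes. In all 10 it reached at least 20-fold, against 47.4% of all protein-coding genes. A summit of that height within 1 kb of the start was likewise present in all 10, against 44% of all protein-coding genes. The promoter values ran from 21.4-fold at Npas2 to 101-fold at Nr1d2, with a median of 58.3-fold, while the median over the 16159 protein-coding genes with a promoter interval was 29.5-fold. Of the 10 genes, 9 lay above that median.

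**Figure D1:**
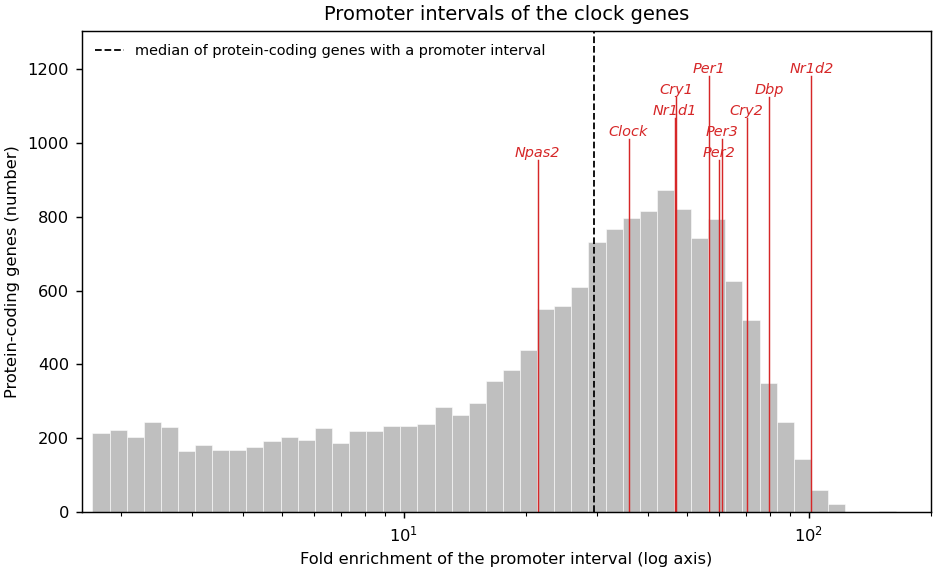
Histogram of the fold enrichment of the promoter interval over the 16159 protein-coding genes that had one (grey bars, number of genes, log horizontal axis), with the 10 clock genes as red lines and the median of 29.5-fold as a dashed line. Npas2 at 21.4-fold lies left of the median, and Nr1d2 at 101-fold lies in the upper tail.

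By the highest summit of the promoter interval, Clock and Npas2 stood lowest, although within 1 kb of the start Nr1d1, at 34.4-fold, lay below Clock. Clock encodes a bHLH-PAS transcription factor, and its gene lies at chr5:76342860-76452846 on the minus strand. Its promoter interval, chr5:76451100-76455336, was 4237 bp wide with 7 summits, and the highest reached 35.9-fold (-log10 q 635) at +198, in the 5′ UTR of exon 1. This is the 59.3rd percentile of promoter intervals, close to the middle of the range. Outside the promoter, 13 smaller intervals were called in the 113 kb region. Their highest summits lay in intron 2 or from exon 23 onward, and none lay in the introns between. The highest of these intervals, chr5:76436999-76437816 in intron 2, reached 10.5-fold. A further interval of 8.97-fold overlapped the gene end and the neighbour Tmem165, with its highest summit just beyond Clock. Weaker intervals near that end also overlapped Tmem165.

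Npas2, which can stand in for Clock in the same complex, lies at chr1:39232705-39402323 on the plus strand. Its promoter interval, chr1:39231011-39234933, reached 21.4-fold (-log10 q 308) at -753, the 38.0th percentile. Among the clock genes Npas2 had the lowest promoter value and the most intervals, 23, over a region of 173 kb. The next interval, chr1:39235100-39236671 in intron 1, reached 19.1-fold, nearly as high as the promoter. From there into the gene, 6 more intervals of introns 1, 7 and 16 lay between 6.81-fold and 9.03-fold, and at the highest of them, in intron 16, an E-box lay 10 bp from the summit.

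The Per genes encode the PAS-domain repressors of the loop. Per1 lies at chr11:68986035-69002300 on the plus strand and was called open from end to end: a single interval, chr11:68981914-69003212, of 21299 bp and 68 summits, covered 100% of the region. Its highest summit reached 56.6-fold (-log10 q 1171) at -77, the 83.1st percentile. The same interval also covered the neighbour Vamp2, so its width is not that of Per1 alone. Within the Per1 region 7 summits reached at least 10-fold, among them 42.9-fold at +1929, 37.8-fold at +3603 and 24.6-fold at +4809. All 7 lay from -77 to +4809, and the highest other summit of the region reached 8.64-fold, in the 3′ UTR of exon 23. The summit at +3603 lay downstream of the canonical transcript start at +3233, and the one at -77 next to the gene start, which belongs to longer transcripts.

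Per1 is known to respond to cAMP and to glucocorticoids besides CLOCK. E-boxes lay 62 bp from the 56.6-fold summit, 16 bp from the 17.3-fold summit at +2484 and 26 bp from the 37.8-fold summit. At the 42.9-fold summit a cAMP response element, TGACGTCA, lay 68 bp away and a glucocorticoid response element with up to 1 mismatch lay 55 bp away. Another glucocorticoid element lay 37 bp from the 17.4-fold summit at +4177 in intron 1. Both glucocorticoid elements and the cAMP element are shown here in capitals, with the glucocorticoid element first in the longer sequence, chr11:68987890-68988047, and alone in the shorter, chr11:68990230-68990268, both on the plus strand.
Per1 at +1929: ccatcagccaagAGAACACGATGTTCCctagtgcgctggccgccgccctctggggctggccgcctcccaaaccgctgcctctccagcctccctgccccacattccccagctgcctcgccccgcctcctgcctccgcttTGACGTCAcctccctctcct
Per1 at +4177: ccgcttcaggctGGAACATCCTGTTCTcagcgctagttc

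Of all 16159 promoter intervals, 4 held a glucocorticoid element within 100 bp of their highest summit (0.0248%). By that measure 0 of the 10 clock genes did, because the Per1 matches lay at other summits. Of all 57866 summits of at least 10-fold, 91 did (0.157%), and among the 61 such summits of the clock genes the 2 of Per1 did. The cAMP response element lay at 1 of the 61 (1.64%) and at 1.12% of all such summits, so its share was close to the background.

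Per2 lies at chr1:91343700-91387069 on the minus strand. Its promoter interval, chr1:91380985-91388717, was 7733 bp wide and reached 59.9-fold (-log10 q 1260.2) at -150, the 86.1st percentile, with the D-box shown above 51 bp from that summit. Per2 also held the 2 strongest intervals outside any clock gene promoter. One, chr1:91366923-91377895, was 10973 bp wide with 29 summits and reached 35.0-fold in intron 4 at +13132. The other, chr1:91362254-91366395, reached 22.4-fold in intron 9. Of the 105 clock gene intervals 12 reached at least 20-fold, against 5.59% of all intervals. Of these 12, 10 were promoter intervals and those of Per2 were the remaining 2. Neither their highest summits nor the other Per2 summits of at least 10-fold had an E-box within 100 bp, although 5 E-boxes lay inside Per2 intervals. A match to the variant CACGTT lay at +30, in the 5′ UTR of exon 1 and 180 bp from the promoter summit.

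Per3 lies at chr4:151081373-151129140 on the minus strand and had a different layout. Its promoter interval, chr4:151127486-151130681, was the narrowest of the 10 at 3196 bp, yet reached 61.1-fold (-log10 q 1295) at -197, the 87.1st percentile. No other Per3 interval reached 5-fold, and the highest was 4.91-fold in intron 9. A pair of D-boxes lay 13 bp and 60 bp from the promoter summit, and all 15 E-boxes of the Per3 region lay outside its intervals.

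The Cry genes encode the cryptochromes, which repress CLOCK and its partner together with the PER proteins. Cry1 lies at chr10:84967560-85021252 on the minus strand, and its promoter interval, chr10:85018439-85022683, held 2 summits of nearly equal height. The first reached 47.0-fold (-log10 q 914) at +10, the 73.8th percentile, and the second 45.2-fold at +280, just ahead of the canonical start at +303. The second had an E-box 4 bp away, the smallest distance among the 12. Only 3 more intervals were called over 56.7 kb, and the strongest, chr10:84997349-84998654, reached 8.51-fold at +23465 in intron 1.

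That intronic interval held a pair of ROR cores, TAGGTCA or TGGGTCA on either strand, 7 bp and 44 bp from its highest summit. A further core lay 30 bp from a weaker summit of the same interval, of 3.93-fold. A ROR element in the first intron of Cry1 is known to shape the timing of Cry1 expression. The matches of the pair are shown in capitals, with the second on the opposite strand (chr10:84997765-84997846, read on the minus strand of the gene). The promoters of Npas2 (plus strand, chr1:39231908-39231938) and Dbp (plus strand, chr7:45354312-45354340) carried ROR cores as well.
Cry1 intron 1: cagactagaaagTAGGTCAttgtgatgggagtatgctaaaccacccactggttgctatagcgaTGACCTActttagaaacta
Npas2 upstream: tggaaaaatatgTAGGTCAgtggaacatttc
Dbp upstream: ttggccaaataTAGGTCAgtgtcccgcct

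The Npas2 core lay 29 bp from its 21.4-fold promoter summit and the Dbp core 68 bp from its 79.9-fold promoter summit. The Dbp core fell in the last exon of the upstream neighbour Car11. Of the 10 promoter summit windows of the clock genes, 2 held a ROR core, against 3.41% of the 16159 promoter intervals. Near all summits of at least 10-fold, ROR cores lay at 3.30 matches per 10 kb at the clock genes and 2.69 at all protein-coding genes.

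Cry2 lies at chr2:92233894-92264474 on the minus strand. Its promoter interval, chr2:92250636-92266292, was 15657 bp wide with 32 summits and covered no other protein-coding gene. The highest summit reached 70.2-fold (-log10 q 1551) at -5, the 92.6th percentile. Further summits inside the gene reached 35.4-fold in intron 3, 31.8-fold and 24.9-fold in intron 1, and 24.9-fold in intron 5. The intron 3 summit at +10195 carried a pair of E-boxes 11 bp and 64 bp away and a ROR core 5 bp away. Downstream, an interval of 16.6-fold overlapped both the end of Cry2 and Mapk8ip1, and 1 of 14.5-fold lay in intron 11.

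Nr1d1, which encodes REV-ERBα, lies at chr11:98658752-98666188 on the minus strand, next to Thra on the opposite strand. Its promoter interval, chr11:98658615-98668672, was 10058 bp wide, spanned the whole gene and reached into Thra. The highest summit was not at the start but in intron 1, with 46.8-fold (-log10 q 909) at +1341, the 73.6th percentile. The summit nearest the start, at -80, reached 34.4-fold, and a further summit at +2328 in intron 1 reached 31.4-fold. An E-box lay 7 bp from the summit at +2328 and a D-box 63 bp from the summit at +1341. Another 3 E-boxes around the +1341 summit lay 136 bp to 159 bp from it, just beyond the 100 bp limit.

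Nr1d2, which encodes REV-ERBβ, lies at chr14:4230545-4266624 on the plus strand and had the highest promoter value of the clock genes. Its promoter interval, chr14:4228334-4233593, reached 101-fold (-log10 q 2485) at -152, the 99.5th percentile of all promoter intervals. It was followed by 75.5-fold at +51 and 61.1-fold at +550. All 3 E-boxes of the Nr1d2 region lay around the summit at +550, 29 bp to 74 bp away, with a D-box 5 bp from that summit. The rest of the gene held 17 more intervals, of which 4 reached 5-fold, the highest being 18.8-fold in the 3′ UTR of exon 8 and 16.1-fold in intron 1.

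Dbp encodes a PAR bZIP output factor of the clock and lies at chr7:45354512-45359627 on the plus strand. It was covered over 100% of its region by a single interval, chr7:45347431-45374165, of 26735 bp and 70 summits. Only 103 of the 279569 intervals were 20 kb or wider, and those of Dbp and Per1 were among them. The Dbp interval also covered Car11, Fam83e, Rpl18, Sec1 and Sphk2. Its highest summit, however, lay at the Dbp start, with 79.9-fold (-log10 q 1831) at -118, the 96.2nd percentile. Of the 19 summits within the 8.12 kb Dbp region, 8 reached at least 10-fold, including 31.4-fold in intron 1 and 31.8-fold in intron 2. Binding of CLOCK to E-boxes inside the introns of Dbp is long known, and both E-boxes of the region lay 38 bp and 75 bp from the intron 2 summit.

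**Figure D2:**
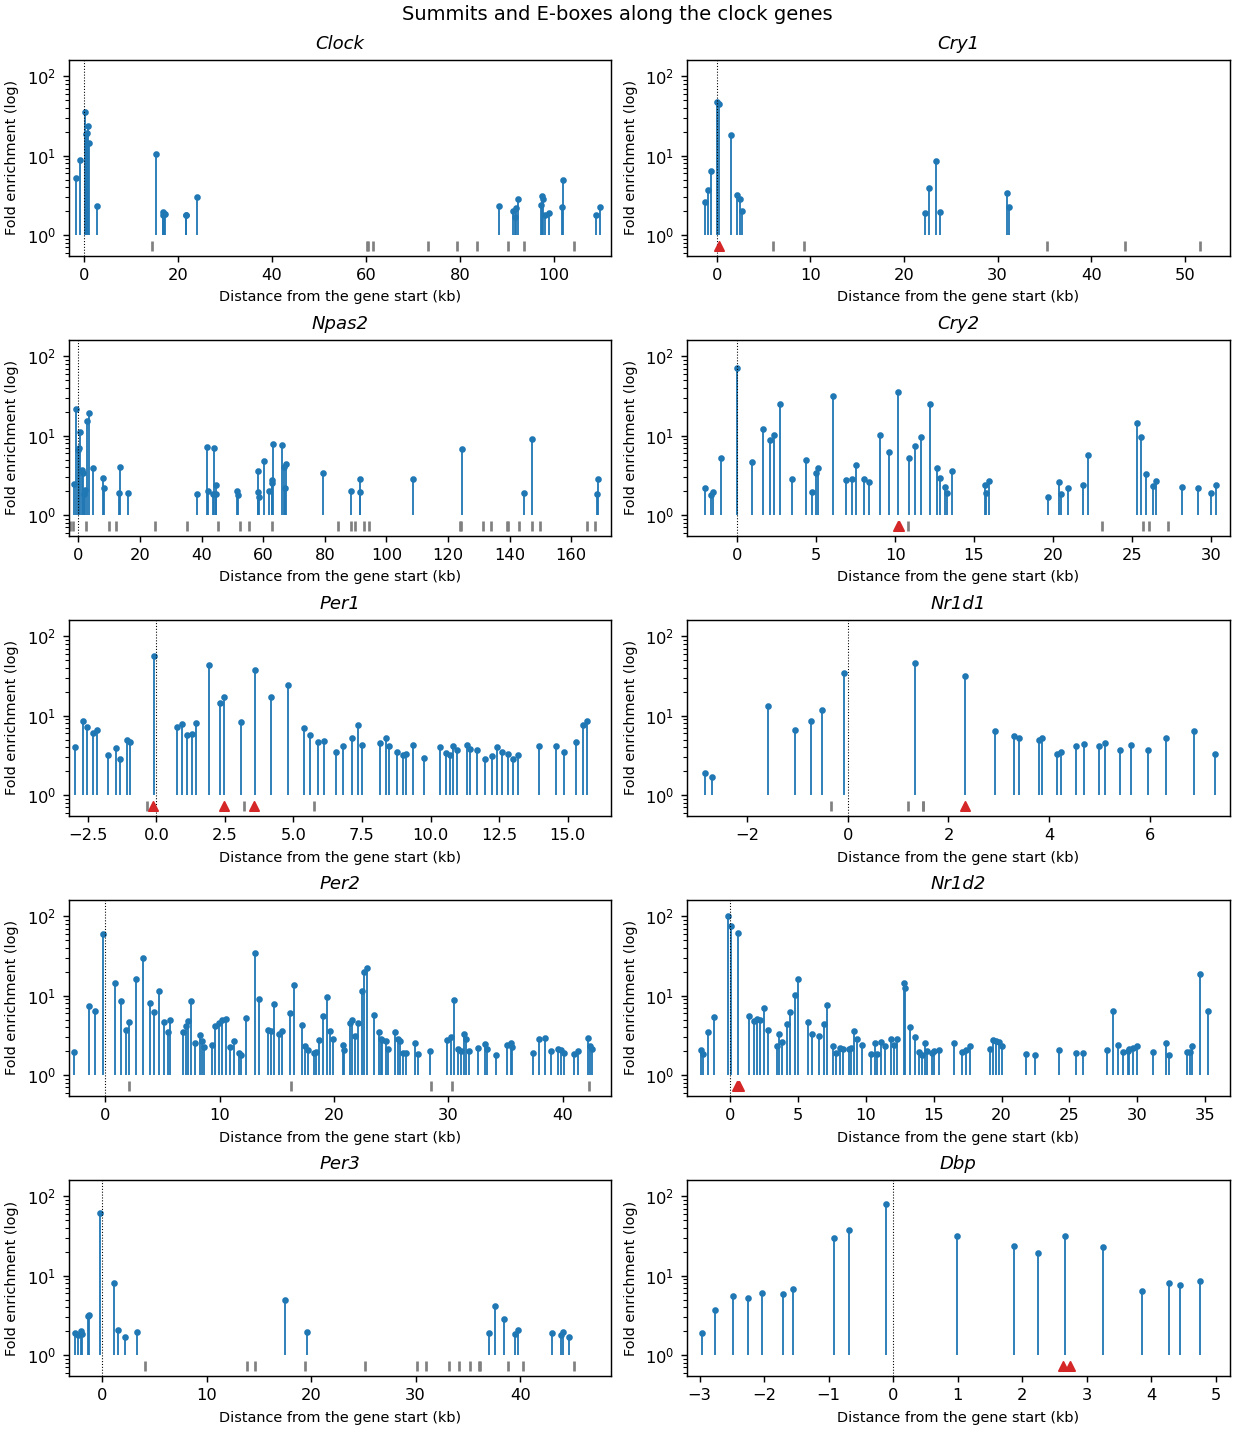
Every summit of the clock genes as a blue line and point, by its distance from the gene start (horizontal axis, kb, read along the gene) and its fold enrichment (vertical log axis), with E-boxes as red triangles where they lay within 100 bp of a summit of at least 10-fold and as grey ticks elsewhere. Clock, Npas2, Per2 and Per3 show no triangle, and those of Cry2, Nr1d1, Nr1d2 and Dbp lie inside the gene.

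The clock genes fell into 2 groups by how much of their region was open. In 6 of them intervals covered at least 65% of the region, against 14.5% of all protein-coding genes, with 100% at Per1 and Dbp, 98.6% at Nr1d1, 78.4% at Per2, 67.5% at Nr1d2 and 65.2% at Cry2. In 4 they covered under 15%, against 47.4% of all protein-coding genes, with 14.3% at Per3, 10.9% at Cry1, 10.4% at Npas2 and 10.1% at Clock. The limits of 65% and 15% were not set in advance and lie next to the values of Cry2 and Per3, so these counts depend on them. The median, which needs no limit, was 66.4% over the 10 genes and 16.7% over all protein-coding genes. The 4 sparsely covered genes had the 4 longest regions, from 50.8 kb to 173 kb, so coverage and length cannot be told apart among these genes.

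**Figure D3:**
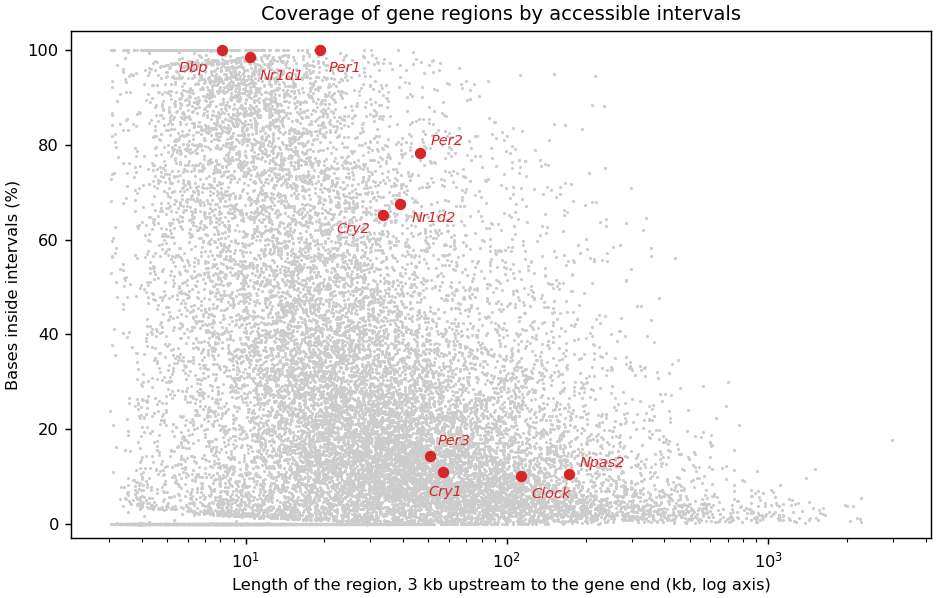
Share of each gene region inside accessible intervals (vertical axis, percent) against the length of the region (horizontal log axis, kb), with all protein-coding genes in grey and the 10 clock genes in red. Per1, Dbp and Nr1d1 lie at 98.6% or more, Per2, Nr1d2 and Cry2 between 65.2% and 78.4%, and Per3, Cry1, Npas2 and Clock under 15%.

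Wide intervals were frequent at these genes. The promoter interval was at least 10 kb wide at 4 of the 10, Per1, Cry2, Nr1d1 and Dbp, against 3.89% of all protein-coding genes. Their median promoter width was 6496.5 bp, and that of all promoter intervals was 2900.0 bp. With the intronic interval of Per2, 5 of the 940 intervals of at least 10 kb overlapped a clock gene. At 3 of the 4 wide promoter intervals, those of Per1, Nr1d1 and Dbp, a neighbouring gene shared the interval.

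Taken over every interval, the median fold enrichment and the number of intervals per 10 kb at the clock genes were close to the background, while strong summits were more frequent. The 105 intervals had a median of 2.75-fold, beside 2.55-fold over all intervals, and 62 of them were under 3-fold, against 59% of all intervals. At least 5-fold was reached by 31 (29.5%), beside 24.5% of all intervals. The median number of intervals per 10 kb of region was 1.62 at the clock genes and 1.85 at all protein-coding genes. A wide interval with many summits, such as those of Per1 and Dbp, counts only once in this number. The median clock gene had 12 intervals in a region of 42.7 kb, and the median protein-coding gene 4 in a region of 22.2 kb. Summits of at least 10-fold numbered 6.5 at the median clock gene and 1 at the median protein-coding gene, or 2.10 and 0.349 per 10 kb.

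At the highest summit of each interval, E-box counts were close to the background. Within 100 bp of it, 1 of the 10 clock genes, Per1, had an E-box, against 6.94% of all promoter intervals. Of the 105 clock gene intervals 4 had an E-box at their highest summit (3.81%), against 3.87% of all intervals. No whole match to the variant CACGTT lay in the 10 promoter windows (3.19% of all promoter intervals), and none to the cAMP response element (2.57%). A Cry2 variant at -104 had its centre 99 bp from the promoter summit but ran past the window edge. The D-box lay in 3 of the 10, those of Per2, Per3 and Nr1d1, against 0.34% of all promoter intervals. The windows did not differ much in base composition, with a median GC content of 65.2% at the clock genes and 64.2% over all promoter intervals.

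Counted over every strong summit instead of the highest, more E-boxes appeared. Of the 61 clock gene summits of at least 10-fold, 8 had an E-box within 100 bp (13.1%), against 5.58% of all 57866 summits of that height. At 20-fold or more it was 7 of 32 (21.9%), against 6.84%, and over all 458 summits 17 (3.71%), against 3.59%. The rise with height at the clock genes rested on a small number of summits and was not tested. It was chosen for display after the values had been seen, as was the D-box, which lay at 4 of the 61 (6.56%), against 0.643% of all such summits.

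Taken by sequence, the 10 regions held 86 E-boxes over 549.9 kb. Of these 32 (37.2%) lay inside intervals and 12 (14.0%) within 100 bp of a summit of at least 10-fold, against 24.2% and 2.01% of the E-boxes of all protein-coding genes. More of the clock gene bases were open to begin with, 30.0% in intervals and 2.20% near such summits, against 16.2% and 0.769%. Per base near these summits, E-boxes lay at 9.90 per 10 kb at the clock genes and 3.13 per 10 kb at all protein-coding genes, and outside them at 1.38 and 1.18 per 10 kb. D-boxes near the same summits lay at 4.13 and 0.31 per 10 kb. A match to these letters is no proof that a factor was bound.

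The genes differed widely in this respect. At Per1, Per2, Nr1d1, Nr1d2 and Dbp every E-box of the region, 6, 5, 5, 3 and 2 in turn, lay inside an interval. At Cry2 it was 5 of 7, at Npas2 5 of 27 and at Cry1 1 of 6, while none of the 10 at Clock and none of the 15 at Per3 did. The 4 genes with the sparsest coverage were thus those with the most E-boxes outside intervals. The 12 E-boxes at strong summits were 3 each at Per1 and Nr1d2, 2 each at Cry2 and Dbp, and 1 each at Cry1 and Nr1d1. Clock, the activator, had none, but a variant E-box lay 12 bp and a ROR core 17 bp from its 23.3-fold summit at +990 in intron 1.

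**Figure D4:**
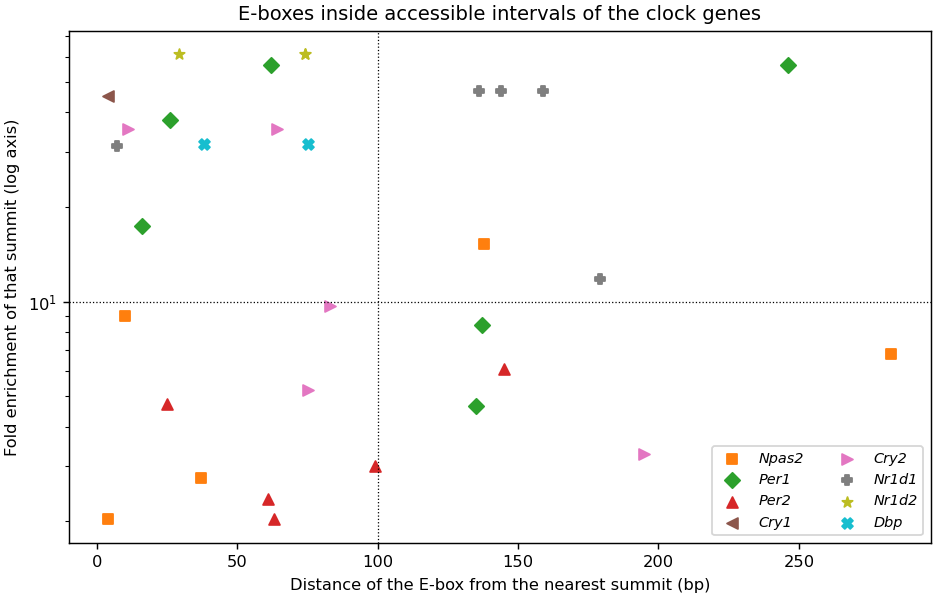
Each E-box inside a clock gene interval by its distance from the nearest summit (horizontal axis, bp) and the fold enrichment of that summit (vertical log axis), with dotted lines at 100 bp and 10-fold and 1 symbol per gene. The upper left field holds 12 E-boxes of Per1, Cry1, Cry2, Nr1d1, Nr1d2 and Dbp, where the Nr1d2 pair at 74 bp overlaps, and Per2 and Npas2 have none there.

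A list of 20 further genes of the clock was compared by role. All 20 had a promoter interval, against 74.3% of all protein-coding genes. At least 20-fold was reached by 19, against 47.4%, the exception being Rora at 10.7-fold. Their median was 43.5-fold. Some of these values came from summits far from the gene start. Counting only summits within 1 kb of the start, the median was 34.0-fold. By this count 16 of the 20 reached at least 20-fold, against 44% of all protein-coding genes. Besides Rora, those below 20-fold were Nfil3 (9.76-fold), Noct (14.9-fold) and Tsc22d3 (12.7-fold). Rorb, which like Rora encodes a receptor that competes with REV-ERB for the same elements, stood at 22.1-fold. The PAR bZIP factors Tef and Hlf, relatives of Dbp, reached 59.6-fold and 28.9-fold, and the D-box repressor Nfil3 37.4-fold. The Tef summit lay at +8927 and that of Nfil3 at +1784. Among further repressors Bhlhe40 reached 71.6-fold, and among the kinases and ubiquitin ligases that set the stability of clock proteins Csnk1d reached 20.6-fold and Btrc 57.5-fold. Output genes ran from 22.9-fold for Tsc22d3 to 85.3-fold for Wee1. Tef and Nfil3 were the 2 of the 20 with a promoter interval of at least 10 kb, against 3.89% of all protein-coding genes. The median coverage over all 20 genes was 58.0%, beside 16.7% over all protein-coding genes.

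As a check of the tissue, 12 marker genes of kidney cell types all had a promoter interval, from 1.90-fold at the leukocyte gene Ptprc to 33.1-fold at Lrp2 of the proximal tubule. Among genes of other organs, Neurod1 and Gfap had one (2.49-fold and 8.05-fold), and Myod1 and Krt5 had none. All clock genes but Npas2 thus exceeded the highest of these 12 markers. All 458 summits of the clock genes were also in the list of summits before filtering.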

How the data were processed

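ATAC-seq was run by the authors on nuclei of mouse kidney cortex. According to the study's methods and the labels, reads were trimmed with fastp, aligned to mm39 (GRCm39) with Bowtie2 2.3.4.3, freed of duplicates and of reads that did not map uniquely, and passed to MACS3 3.0.0 with a q limit of 0.05 and summit calling. Blacklisted regions and non-standard chromosomes were removed with bedtools 2.29.1. The methods print the read shift without a minus sign, and the files do not show which sign was used. It moves summits relative to the Tn5 cut and so bears on each distance from a motif to a summit.

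For every summit, the authors deposited the fold enrichment, which is a ratio of pileup to background on a linear scale, and the -log10 q from their peak caller. The -log10 p was not used here. The deposited score is 10 times the -log10 q in whole numbers, and the summit offset is given from the interval start. By its peak names the list is 1 call over pooled libraries, and 0 columns belong to a single library. The depth of each library is therefore unknown. Whether WT libraries deposited earlier entered the pool is not shown by the files. The list is longer than the peak set the study describes, which was not used here.

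Rows with the same chromosome, start and end were joined as 1 interval, described by the summit with the largest -log10 q. Positions are counted from 1, and distances run from the gene start along the gene strand. The gene start is the outermost annotated start, and the canonical start is the one GENCODE M39 tags as canonical. Motifs were searched on both strands without mismatch: E-box CACGTG, variant E-box CACGTT, cAMP response element TGACGTCA, D-box TTATGTAA or TTACGTAA, and ROR core TAGGTCA or TGGGTCA. The glucocorticoid response element was searched as its palindrome with 1 mismatch allowed. Matches of different motifs may overlap. Distances run from the centre of a match to the nearest summit. Counts of promoter intervals, intervals or summits with a motif took only matches lying whole within 100 bp of the summit. Counts of matches and matches per base went by the centre.

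The genes named are all 10 members, with their promoter interval, the strongest interval away from it and each interval of at least 5-fold with an E-box at its summit. The members, the 20 further clock genes, the markers and the motifs were chosen with earlier results of these data known, and the summit counts at 10-fold and 100 bp were added after the values had been seen. The coverage limits of 65% and 15% were not set in advance either. Some genes of these lists are not reported here by name. With a single pooled call no test was run. Other q limits, fold limits, region borders and motif windows were tried as alternatives. The scripts were tested on simulated data and used Python 3.11.15, numpy 2.4.6, pandas 2.3.3, pysam 0.24.0, samtools 1.23.1 and matplotlib 3.10.9.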

Additional observations from a re-analysis of the deposited data

How the results depend on the processing

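The number of clock gene intervals, 105, became 61 at a q under 1e-05, 31 at 5-fold or more, 165 with 10 kb added on either side and 458 when summits were counted, and was 96 at a q under 0.01 and 100 under each of the 3 other region rules. Their density of 1.91 per 10 kb over all regions together became 0.564 at 5-fold or more and 1.92 without the upstream 3 kb. All 10 promoter intervals and their median of 58.3-fold were the same under each alternative tried. The 1 gene with an E-box at the promoter summit became 0 with 50 bases on either side, 2 with 250 bases, and 7 with any summit or with the whole interval. The 4 intervals with an E-box at the summit became 2 with 50 bases, 8 with 250 bases and 2 at 5-fold or more. The 12 E-boxes near strong summits became 7 within 50 bp, 15 with summits of at least 5-fold and 11 with summits of at least 20-fold, settings chosen after seeing the data. Each of these settings changes, by construction, how many intervals, summits or bases are counted. At single genes, the number of intervals moved by over 1.5 times in 10 of 20 settings.

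No paired analysis was possible because the deposited values come from 1 pooled call with no column per library. For that reason no replicate could be left out in turn. Genotype, batch, mouse and time of day are all merged in each value. Small counts such as 3 of 10 or 8 of 61 have no replicate error. Intervals shared with Vamp2, Thra, Tmem165, Mapk8ip1, Uts2, Vamp3 or the neighbours of Dbp do not belong to 1 gene.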
